A study of Mus musculus with 6 samples.

Results

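The immunity-related GTPases (IRG proteins) are a family of interferon-inducible GTPases of mice. Here 8 genes of the family were described, Irgm1, Irgm2, Igtp, Iigp1, Tgtp1, Tgtp2, Ifi47 and Gm12185, out of 31017 genes in the count table. They were taken by gene symbol, and the family was chosen by its normalised counts in KO against control libraries, the comparison described here. The difference between the groups is therefore given for these 8 genes as a description, with no p-value, and calls on them are read as no support. The study compared RNA of mouse Th17 cells, helper T cells that secrete interleukin 17, differentiated in culture from wild-type (control) and RTF1-deficient (KO) cells, with 3 libraries per group. RTF1 accompanies RNA polymerase II with the PAF1 complex and promotes ubiquitination of histone H2B. The strain, the age of the animals and the way in which RTF1 was removed are not given in the sources used here, and the labels do not say whether the 3 libraries of a group came from separate animals. p-values therefore measure only the spread between these libraries, which may be technical in part.

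IRG proteins act inside cells infected by vacuolar pathogens such as Toxoplasma gondii. The effector members, called GKS proteins after a motif of their nucleotide-binding site, load onto the membrane of the vacuole and break it. The regulatory members, called GMS proteins, sit on the cell's own membranes and hold the effectors in an inactive state there. In many mouse cells interferon gamma induces the family through transcription factors that include IRF1, and in T cells Irgm1 is known for its role in cell survival after activation.

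Total counts ranged from 16489813 to 51271226 per library. Values written with ± are the mean and SD of the 3 libraries of a group (n = 3). Rtf1, the targeted gene, held 94.0, 91.2 and 88.3 CPM (read counts normalised to library size, with TMM factors) in control replicates 1, 2 and 3, and 45.3, 30.4 and 26.2 CPM in KO (edgeR log2 fold change −1.42, SE 0.191, adjusted p = 7.6e-04). Summed over the T cell and Th17 markers Cd3e, Cd3g, Cd4, Il17a, Il17f, Il23r and Ccr6, control libraries held 2155 to 2738 CPM and KO libraries 1239 to 1735, with 2 of the 7 called higher and 5 lower by edgeR, where 46.1% of all tested genes were called in either direction. With a library left out, Cd3g and Ccr6 were not called in 4 of 6 fits, Il17f in 3 and Il23r in 2. Y-linked genes were counted in replicate 3 of both groups, with 1 to 3 such counts in each of the other libraries, which sets replicate 3 apart from replicates 1 and 2 in its animals. Fewer cells expressing a gene and less RNA of it per cell cannot be told apart in these bulk libraries.

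Of the 8 genes, 7 lie on chromosome 11 (assembly GRCm38, GENCODE M21) and 1 lies elsewhere. A first group runs from 48861968 to 49096974 and holds Irgm1 (48861968 to 48871683), Gm12185 (48904656 to 48992226), Tgtp1 (48985327 to 48994172) and Tgtp2 (49057194 to 49064206) on the minus strand and Ifi47 (49076587 to 49096974) on the plus strand. A second group, 23.2 kb long, holds Igtp (58199556 to 58207591) and Irgm2 (58199618 to 58222782), both on the plus strand. All 7 genes on chromosome 11 had a promoter window in the RefSeq table of GRCm38.p6, from 250 bases before the transcription start to 50 bases after it. For Irgm1, Irgm2, Gm12185 and Tgtp1 the RefSeq start lies inside the GENCODE gene given above. The 150 bases before the start are shown for 6 of them, because 5 of the 7 share a short block there and because Ifi47 holds no match. Capitals mark matches, on either strand, to TTCNNNGAA, the core of the gamma-activated site (GAS) of interferon gamma targets, and to GAAA, 2 bases of any kind and GAAA again, the core of the interferon-stimulated response element (ISRE).
Irgm1, chr11:48871421-48871570, minus strand: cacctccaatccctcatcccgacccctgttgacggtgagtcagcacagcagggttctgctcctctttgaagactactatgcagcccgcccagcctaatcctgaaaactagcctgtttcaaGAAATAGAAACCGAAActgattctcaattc
Igtp, chr11:58199406-58199555, plus strand: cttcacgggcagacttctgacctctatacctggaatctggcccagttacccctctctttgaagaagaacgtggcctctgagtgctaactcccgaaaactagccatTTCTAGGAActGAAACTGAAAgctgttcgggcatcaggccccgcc
Gm12185, chr11:48927183-48927332, minus strand: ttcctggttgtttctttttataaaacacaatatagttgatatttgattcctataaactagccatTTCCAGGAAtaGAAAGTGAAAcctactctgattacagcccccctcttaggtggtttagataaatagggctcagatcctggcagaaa
Tgtp1, chr11:48992247-48992396, minus strand: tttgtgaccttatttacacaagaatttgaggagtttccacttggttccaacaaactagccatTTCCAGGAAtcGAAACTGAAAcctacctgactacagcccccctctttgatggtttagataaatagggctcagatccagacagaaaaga
Tgtp2, chr11:49064213-49064362, minus strand: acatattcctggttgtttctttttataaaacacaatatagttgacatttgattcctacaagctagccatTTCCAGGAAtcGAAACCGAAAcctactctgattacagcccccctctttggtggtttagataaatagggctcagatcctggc
Ifi47, chr11:49076437-49076586, plus strand: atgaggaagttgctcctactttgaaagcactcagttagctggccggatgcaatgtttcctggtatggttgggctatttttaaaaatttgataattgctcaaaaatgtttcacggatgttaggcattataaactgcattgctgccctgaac

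In Igtp, Irgm2, Gm12185, Tgtp1 and Tgtp2 the GAS-like match was followed by the ISRE-like match after 2 bases. The 5 windows also share the run CTAGCCATTTC, whose last bases begin the GAS-like match. Counted from the transcription start as 0, the GAS-like match began at −45 in Igtp, −75 in Irgm2, −86 in Gm12185, −88 in Tgtp1 and −81 in Tgtp2. Irgm1 held 2 overlapping ISRE-like matches, at −30 and −24, and no GAS-like match. Ifi47 held neither in this window, which says only that these letters are not there. Of all 32851 promoter windows of the same length, 8.3% held the GAS-like letters, 3.44% the ISRE-like letters, 0.454% both, and 8 windows the shared run. 

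**Figure D1:**
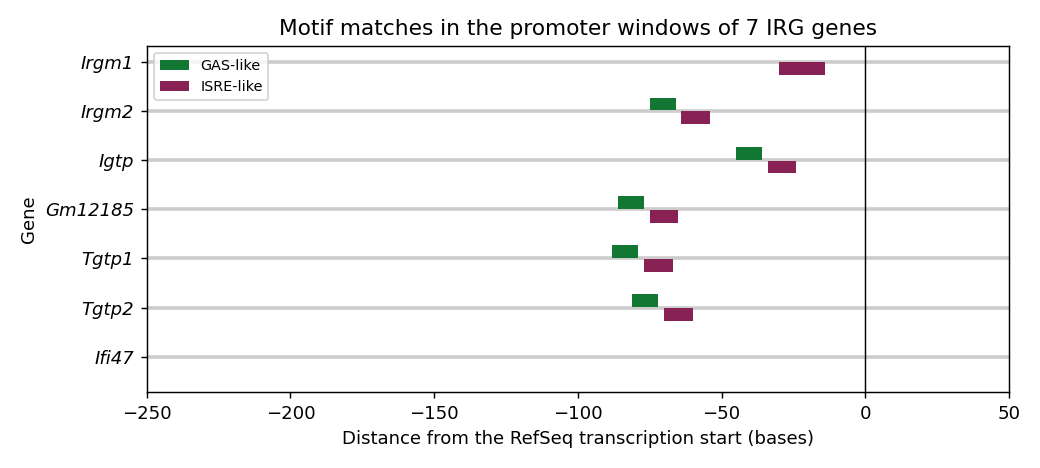
Positions of GAS-like (green) and ISRE-like (purple) matches in the promoter windows of the 7 IRG genes on chromosome 11. The x axis is the distance from the RefSeq transcription start in bases, and the grey line is the window searched. In 5 genes the 2 motifs lie side by side, Irgm1 has only the ISRE-like matches, and Ifi47 has no match.

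All 3 regulatory GMS genes were measured well above zero in control cells and were higher in every KO library. Igtp, also called Irgm3, which sits on the endoplasmic reticulum and lipid droplets, held 81.6, 128 and 115 CPM in control replicates 1, 2 and 3 and 494, 555 and 654 CPM in KO. The lowest KO library lay 3.85 times above the highest control library, and the log2 fold change was 2.39 (SE 0.193), or 5.24-fold. Irgm1, which is known for acting at the Golgi apparatus, lysosomes and mitochondria, held 23.2, 29.9 and 33.4 CPM in control and 133, 130 and 167 CPM in KO. Its libraries did not overlap between groups either, with a log2 fold change of 2.31 (SE 0.167). Irgm2, which acts at the Golgi apparatus, held 18.2, 26.1 and 34.4 CPM in control and 198, 236 and 286 CPM in KO. Irgm2 showed the largest difference of the 3 (log2 fold change 3.19, SE 0.241), and its control libraries spread by 1.88-fold from lowest to highest. Control replicate 1 was the lowest control library for all 3 genes, and KO replicate 3 the highest KO library.

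The effector genes Iigp1, Tgtp1 and Tgtp2 had fewer counts than the GMS genes in control, and their KO libraries were higher in each case. Iigp1, on chromosome 18 and also called Irga6, is the best studied effector that loads onto the parasite vacuole. Iigp1 held 1.64, 3.12 and 1.71 CPM in control, from 27, 151 and 72 reads, and 121, 85.3 and 157 CPM in KO. The lowest KO library, replicate 2, was 27.4 times the highest control library. Its log2 fold change of 5.76 (SE 0.328), about 54.1-fold, was the largest of the 8, and 26 of the 14268 tested genes had a larger one. Tgtp1 and Tgtp2 encode near-identical copies of Irgb6, an effector that loads early. Tgtp1 held 3.77, 7.14 and 3.94 CPM in control and 53.3, 61.2 and 70.7 CPM in KO (log2 fold change 3.61, SE 0.263). Tgtp2 held 2.80, 5.90 and 3.99 CPM in control and 62.6, 75.3 and 74.6 CPM in KO (log2 fold change 4.02, SE 0.252). In both copies control replicate 2 was the highest control library and still lay below every KO library.

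The copies cannot be told apart by much of their sequence. Of all 50-base stretches of Tgtp1 transcripts, 79.4% also occur in Tgtp2 transcripts, and 85.8% of the stretches of Tgtp2 occur in Tgtp1, so the split of reads between them is uncertain. The treatment of reads with several matches is not given, so their summed level beside other genes is uncertain too. Summed to a single gene, the pair held 6.57, 13 and 7.94 CPM in control and 116, 136 and 145 CPM in KO, and the fit with the copies summed gave a log2 fold change of 3.83. Smaller shares were found in Gm12185 (19.5% in other genes, mainly Gm5431), in Igtp (11.8% in Irgm2) and in Irgm2 (6.79% in Igtp), while Iigp1 (1.69%), Ifi47 (2.54%) and Irgm1 (0.31%) were nearly unique. Exons of Igtp and Irgm2 also overlap on the same strand, over 8.01% of the exonic bases of Igtp, and 6.96% of those of Tgtp1 lie under exons of Gm12185.

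Ifi47, also called Irgd, an effector-type protein, differed least. It held 42.7, 64.6 and 34.4 CPM in control and 170, 183 and 178 CPM in KO, a log2 fold change of 1.90 (SE 0.212), or 3.74-fold. Its KO libraries lay within 1.08-fold of each other, the narrowest KO range among the 8 genes, whereas control replicate 2 was 1.88 times control replicate 3. Without control replicate 2 its log2 fold change was 2.19, and without control replicate 3 it was 1.65. Gm12185, also called Irgb2b1, encodes a tandem IRG protein and was the lowest member in control, with 13, 25 and 31 reads, or 0.790, 0.516 and 0.737 CPM. In KO it held 18.9, 20.8 and 27.3 CPM, a log2 fold change of 5.07 (SE 0.260). It was the only one of the 8 genes for which control replicate 2 was the lowest control library.

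**Figure D2:**
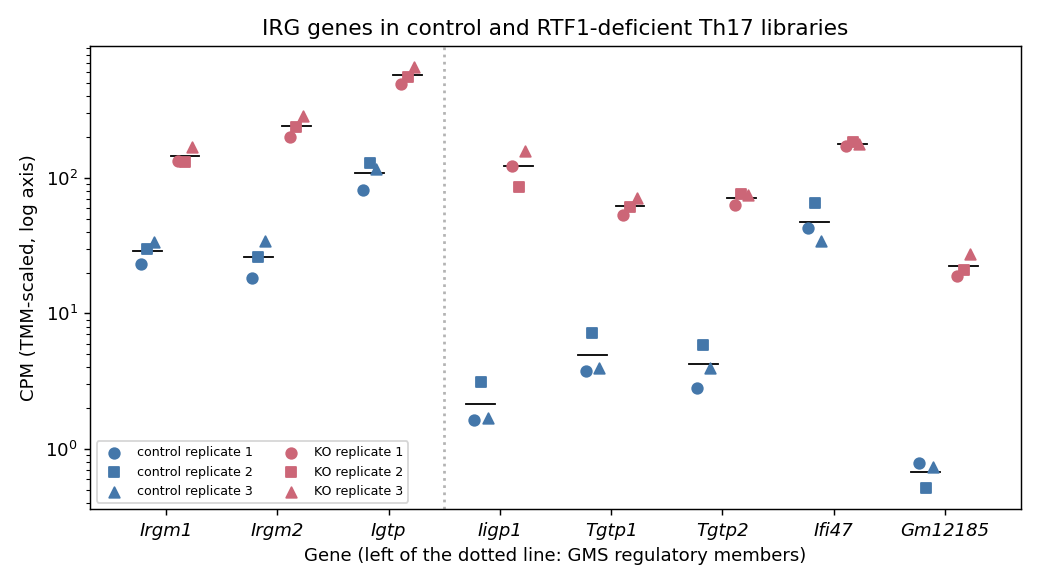
CPM of each IRG gene (log axis) in the 3 control (blue) and 3 KO (red) libraries, with symbols for the replicate number and black lines for group means. In each of the 8 genes the KO libraries lie above the control libraries, and the gap is widest for Iigp1 and Gm12185 and narrowest for Ifi47.

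All 8 genes passed the filter on low counts, and in all 8 every KO library lay above every control library, a pattern found in 29.9% of all tested genes. By edgeR's quasi-likelihood test with Benjamini-Hochberg adjustment over all genes tested, 8 of 8 were called higher, as were 23.2% of all tested genes. Because the same comparison chose the family, nothing is read from these counts. The median log2 fold change was 3.40 over the 8 genes and 0.013 over all tested genes. The differences ran from 1.90 in Ifi47 to 5.76 in Iigp1, and 710 tested genes lay above Ifi47.

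**Figure D3:**
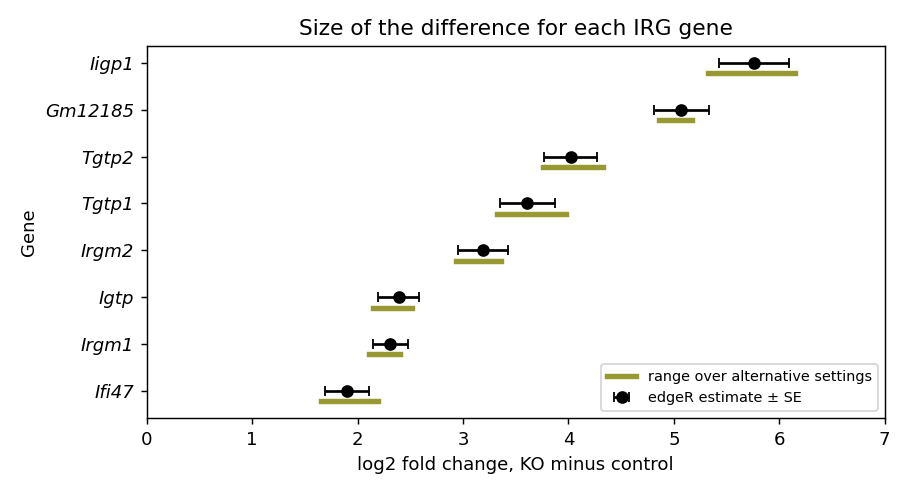
edgeR log2 fold change, KO minus control, with its SE (black) for each IRG gene, and the range over the alternative processing settings (olive). Every range stays above 0, from 1.65 to 2.19 in Ifi47 and from 5.32 to 6.15 in Iigp1.

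Levels per length, CPM per kilobase of exon, put Igtp first and Gm12185 last of the 8 genes in all 6 libraries, while the order between them varied. In control, Igtp led with 53.5 ± 11.9 (SD, n = 3), followed by Ifi47 with 19.1 ± 6.31, Irgm2 with 7.11 ± 2.18 and Irgm1 with 4.96 ± 0.895. Tgtp1 (1.54 ± 0.592) and Tgtp2 (1.44 ± 0.533) came next and did not differ beyond their spread, and neither did Irgm2 and Irgm1, although Irgm2 was above Irgm1 in each library. Iigp1 (0.370 ± 0.143) and Gm12185 (0.122 ± 0.0260) were the lowest in every control library. In KO, Igtp (281 ± 39.9) again led in every library. Ifi47 (71.6 ± 2.63) and Irgm2 (65.1 ± 12.0) changed places in KO replicate 3 and did not differ beyond their spread. Irgm1 (24.7 ± 3.50), Tgtp2 (24.1 ± 2.43), Iigp1 (20.8 ± 6.15) and Tgtp1 (19.3 ± 2.71) followed, and neighbours in that order overlapped between libraries. Gm12185 (4 ± 0.789) was the lowest in every KO library. The places of Tgtp1 and Tgtp2 among the other genes are uncertain, because much of their sequence is shared.

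Summed over the 8 genes, the libraries held 175, 266 and 227 CPM in control and 1252, 1347 and 1614 CPM in KO. The mean summed CPM, a level relative to the reads of each library, was 6.31 times as high in KO. The 3 GMS genes made up 74.4% ± 5.65 of the per-length sum in control and 72.5% ± 1.48 in KO (SD, n = 3), ranges that overlap. Within that sum Igtp alone took 58.4%, 59.5% and 63.9% in control and 54.1%, 55.1% and 55.7% in KO. The Tgtp1 and Tgtp2 pair, whose level is uncertain for the same reason, went from 3.32% ± 0.567 to 8.51% ± 0.417. Iigp1 went from 0.331 to 0.502% in control libraries to 2.94 to 4.64% in KO libraries. Ifi47 took 15.7 to 25.0% of the sum in control and 12.4 to 15.2% in KO.

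Other genes of the family, from a list that does not overlap the 8, were measured as well. Like the lists below, it was chosen with earlier results of these data known, so its calls are a description. Of the 8 listed genes in the table, all were tested, 7 were called higher in KO and 0 lower by edgeR, beside 23.2% of all tested genes called higher and 46.1% called in either direction. Gm4841 and F830016B08Rik, on chromosome 18 as is Iigp1, had 0 reads in all 3 control libraries. In KO they had 115, 112 and 83 reads and 334, 208 and 307 reads, at least 36.7-fold and at least 107-fold above a floor of 3 counts per control library. Gm4951, also on chromosome 18, rose from 0.148 ± 0.123 CPM and reached 12.4 ± 3.97 CPM. Its log2 fold change was 6.15 (SE 0.493, edgeR adjusted p = 1.1e-04), and 7.11 without control replicate 2, from 1, 14 and 4 control reads. On chromosome 11, Gm5431 had 3, 2 and 2 reads in control and 23, 28 and 16 in KO, but 37.3% of its stretches occur in other genes.

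9930111J21Rik1 and 9930111J21Rik2, on chromosome 11 between Irgm1 and Tgtp2, were called higher with smaller differences. 9930111J21Rik2 lay at 17.6 ± 6.80 CPM in control libraries against 57.3 ± 10.1 CPM in KO libraries (log2 difference 1.69, SE 0.259, edgeR adjusted p = 0.00132). 9930111J21Rik1 lay at 5.39 ± 1.93 CPM in control libraries against 18.8 ± 0.916 CPM in KO libraries (log2 difference 1.78, SE 0.247, adjusted p = 8.5e-04). Of its stretches 80.4% occur in 9930111J21Rik2, and 56.1% of those of 9930111J21Rik2 occur in 9930111J21Rik1. The split of reads between them is therefore uncertain. The family also has members on chromosome 7 that interferon is not known to induce. Irgc1, known from male germ cells, was higher, at 0.315 ± 0.0605 CPM in control libraries against 3.49 ± 0.191 CPM in KO libraries (log2 difference 3.49, SE 0.336, edgeR adjusted p = 2.1e-04). Irgq, a divergent relative, held 34 ± 8.29 and 39.0 ± 1.87 CPM and was not called (log2 fold change 0.19, adjusted p = 0.384), but was called without control replicate 3 (0.36, adjusted p = 0.0474).

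Genes of the interferon receptors and of interferon signalling, not all of which act before the family, were taken from a list. Of 21 listed genes 20 were tested, and edgeR called 13 higher and 2 lower, with a median log2 fold change of 0.92, beside 23.2% of all tested genes called higher and 46.1% in either direction. Irf1, the transcription factor that binds ISRE-like sites of many interferon gamma targets, held 34.5 ± 6.28 CPM in control and 197 ± 37.4 CPM in KO (log2 difference 2.51, SE 0.185, edgeR adjusted p = 7.9e-05). Irf1 reads numbered 450, 1781 and 1653 in control and 4848, 6267 and 4697 in KO, in libraries of unequal depth. Stat2 (1.29, adjusted p = 0.00223), Irf7 (2.01, adjusted p = 0.00567; 2.72 without control replicate 3) and Irf9 (0.48, adjusted p = 0.0322) were called higher too. edgeR made no call of Irf9 with upper-quartile factors or in 4 of 6 fits with a library left out.

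All 4 interferon receptor genes were called higher. Ifngr1, the ligand-binding chain of the interferon gamma receptor, lay at 45.9 ± 7.75 CPM in control libraries against 165 ± 51.7 CPM in KO libraries (log2 difference 1.84, SE 0.235, edgeR adjusted p = 6.2e-04), and Ifngr2, its signalling chain, at 70.4 ± 6.02 and 159 ± 25.6 CPM (1.18, SE 0.144, adjusted p = 5.2e-04). Ifnar1 of the type I receptor rose by 1.30 (adjusted p = 1.8e-04). Ifnar2 was called at 0.41 (edgeR adjusted p = 0.0319), but not in 5 of 6 fits with a library left out, nor without a filter on low counts. Among the kinases, Jak1 rose (0.65, adjusted p = 0.00228), Jak2 fell (−0.44, adjusted p = 0.0168, but not called in 3 of 6 such fits), and Tyk2 was not called (0.17, adjusted p = 0.274).

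Of the interferon genes, Ifng and Ifnb1 were listed, and both had few reads. Ifng had 1, 20 and 16 reads in control and 18, 8 and 13 in KO (edgeR log2 fold change 0.66, adjusted p = 0.422), and Ifnb1 had 0, 4 and 8 reads in control and 2, 0 and 0 in KO and was not tested. Ptpn2, a phosphatase that dampens JAK and STAT signalling, was lower, at 133 ± 11.8 CPM in control libraries against 70.4 ± 4.14 CPM in KO libraries (log2 difference −0.92, SE 0.112, edgeR adjusted p = 5.3e-04). The feedback inhibitor Socs1 held 105 ± 3.94 and 108 ± 3.56 CPM and was not called (0.04, adjusted p = 0.734). Usp18, which restrains the type I receptor, was higher, at 13.7 ± 4.71 CPM in control libraries against 49.2 ± 15.1 CPM in KO libraries (log2 difference 1.86, SE 0.301, adjusted p = 0.00167).

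Further listed genes encode transcription factors and cofactors of the same signalling. Nlrc5, the activator of MHC class I genes, lay at 61.4 ± 7.53 CPM in control libraries against 151 ± 22.9 CPM in KO libraries (log2 difference 1.30, edgeR adjusted p = 3.7e-04). Ciita, the activator of MHC class II genes, was called higher (3.10, adjusted p = 0.00339) but reached only 1.90 ± 0.814 CPM in KO, and its log2 fold change was 3.86 without control replicate 3. Batf2 had 0 reads in every control library and 31, 44 and 49 in KO, at least 15.3-fold above the floor of 3 counts per control library. Irf2 (0.35, adjusted p = 0.106) and Irf8 (0.45, adjusted p = 0.243) missed the threshold. With replicate as a blocking term both were called (adjusted p = 0.0218 and 0.0364), and Irf2 was called also without control replicate 3 and with replicates 1 and 2 only.

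Loading of IRG proteins onto a vacuole depends on the machinery that attaches LC3 and GABARAP proteins to lipids, and ubiquitin ligases and adaptors follow. Of 16 listed genes 15 were tested, 8 were called higher and 0 lower by edgeR, with a median log2 fold change of 0.71. The 8 of 15 called higher stand beside 23.2% of all tested genes called higher and 46.1% called in either direction. Ubiquitin-like proteins of the LC3 and GABARAP group made up most of these calls. Map1lc3b lay at 69.9 ± 10.5 CPM in control libraries against 262 ± 40.4 CPM in KO libraries (log2 difference 1.91, SE 0.161, edgeR adjusted p = 1.3e-04), and Gabarap at 107 ± 14.5 and 244 ± 35.0 CPM (1.19, SE 0.151, adjusted p = 5.9e-04). Gabarapl1 (0.75), Gabarapl2 (0.82) and Map1lc3a (0.93) were higher as well, with adjusted p of 0.00319, 0.00263 and 0.00941.

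Most of the genes that attach these proteins were not called. Atg5, which IRG loading requires in mouse cells, held 30.3 ± 6.57 and 30.8 ± 2.77 CPM (log2 fold change 0.02, edgeR adjusted p = 0.921), with a sign that turned in 3 of 6 fits with a library left out. Atg7 (−0.25, adjusted p = 0.129), Atg3 (0.24, adjusted p = 0.172) and Atg16l1 (0.09, adjusted p = 0.642) did not pass the threshold either, nor did Atg10 (−0.60, adjusted p = 0.103), which was called without KO replicate 1 (−0.87, adjusted p = 0.0358). Their partner Atg12 was called higher (0.71, adjusted p = 0.0204), though not in 4 of 6 fits with a library left out. Of the ligases, Trim21 was higher, at 17.4 ± 3.28 CPM in control libraries against 64.6 ± 10.1 CPM in KO libraries (log2 difference 1.89, SE 0.177, adjusted p = 1.9e-04), Traf6 was not called (−0.05, adjusted p = 0.755; 0.04 when scaled by library size alone), and Rnf213 was called (0.90, adjusted p = 0.0345) but not in 3 of those fits. The adaptor Sqstm1 was not called (0.29, adjusted p = 0.166), but was with the replicate block (adjusted p = 0.0422).

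**Figure D4:**
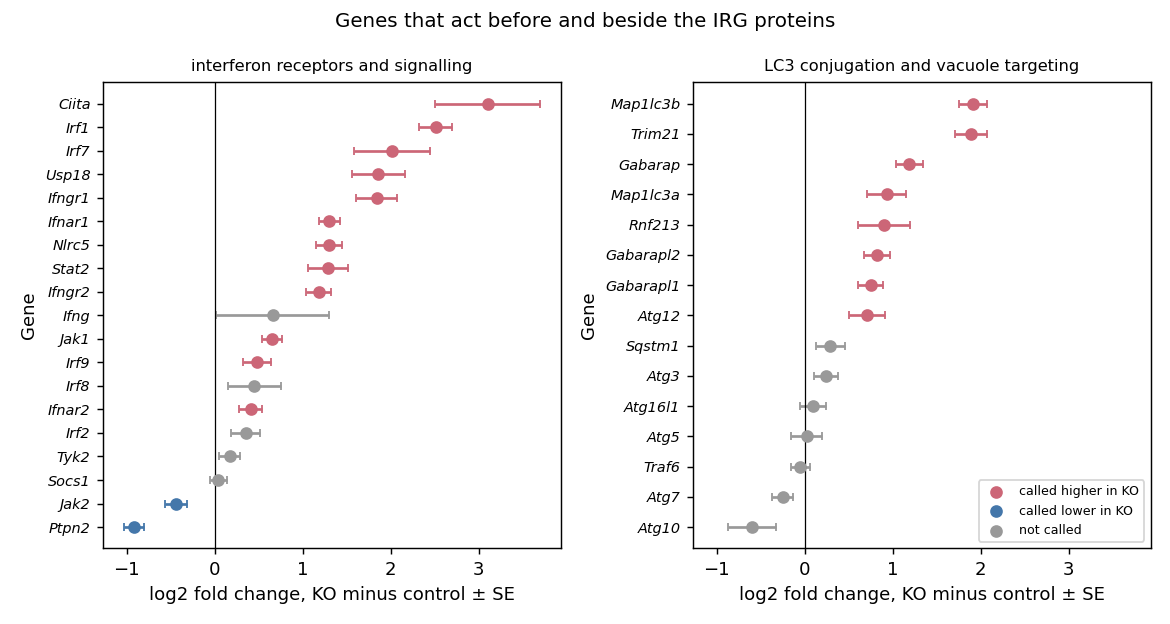
edgeR log2 fold change, KO minus control, with its SE for the tested genes of the interferon list (left) and the LC3 and vacuole list (right), leaving out Batf2, which had 0 reads in control. Red points were called higher (adjusted p under 0.05), blue lower and grey not called. Ciita, Irf1 and Irf7 lead the left side, where the receptor chains lie to the right of 0, Ifnar2 nearest to it. Map1lc3b and Trim21 lead the right side, while Atg5 sits near 0.

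Genes beside the IRG groups but outside the family were looked at by position, a choice made after the IRG values were seen. Within 500 kb of the 2 groups on chromosome 11 and of the group with Iigp1 on chromosome 18, 29 such genes were tested, of which edgeR called 12 higher and 3 lower, with a median log2 fold change of 0.32, beside 23.2% of all tested genes called higher and 46.1% in either direction. Around the group that holds Irgm1, 5 of 10 tested genes were called higher and 0 lower. Around Igtp and Irgm2, 2 of 11 were called higher and 2 lower, and on chromosome 18, 5 of 8 higher and 1 lower. The genes named next are examples. Rack1, 55.5 kb from the group that holds Irgm1, held 1795 ± 195 and 1760 ± 169 CPM (log2 fold change −0.03, adjusted p = 0.885). Mrpl22, 20.0 kb from Igtp and Irgm2, held 23.2 ± 2.68 and 23.2 ± 1.31 CPM, and Gemin5, 31.0 kb from them, fell (−0.91, edgeR adjusted p = 0.00193). Psme2b, inside the first group, was higher by 1.12 (adjusted p = 0.00199). However, 28.3% of the 50-base stretches of Psme2, on chromosome 14, also occur in Psme2b. Part of the reads of Psme2b may therefore come from Psme2, which was not tested.

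By the likeness of log2 CPM to the mean standardised profile of the 8 genes over the 6 libraries, the closest of 9799 other genes were Vps18 (Pearson r 0.9994), Ifi35 (0.9983), Pla2g16 (0.9982), Parp12 (0.9976) and Atp6v1b2 (0.9973). These values mostly carry the difference between the groups, which the 6 points share, and are a description. Ifi35 and Parp12 are known interferon-induced genes, and Vps18 and Atp6v1b2 serve lysosomes. With the group means subtracted, which leaves the spread between replicates, 4 of the 5 closest were Psme2 (0.9927), Psmb8 (0.9918), Arpc1b (0.9832) and Lman2 (0.9831). Such values are the highest among 9799 genes over only 6 libraries, and are a description too. Among the 8 genes themselves, pairwise r on this measure ran from −0.616 to 0.937, and 21 of 28 pairs were positive. Psme2 and Psmb8 encode parts of the interferon-inducible proteasome, and 28.3% of the stretches of Psme2 occur in Psme2b. Between the groups the log2 fold change was 0.91 in Psme2, 0.32 in Psmb8, 0.03 in Arpc1b and 0.37 in Lman2. Libraries of Psmb8 and Arpc1b overlapped between the groups.

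Markers of other cells that express IRG genes were measured beside these results. Of the 9 macrophage and monocyte markers, 6 were tested and 5 were called higher in KO by edgeR, beside 23.2% of all tested genes, and the sum of the 9 was 38.8 to 68.9 CPM in control libraries and 142 to 188 CPM in KO libraries. Ctss carried most of that sum (51.2 ± 15.0 and 132 ± 18.5 CPM). Cd68 (3.19 ± 1.32 and 20.0 ± 6.11 CPM), Mpeg1 (0.134 ± 0.0995 and 5.71 ± 1.60 CPM) and Fcer1g (0.109 ± 0.0418 and 0.81 ± 0.267 CPM) were called higher as well. Of the defining markers, Csf1r was called higher at a low level (0.361 ± 0.135 and 1.18 ± 0.535 CPM), though not in 4 of 6 fits with a library left out nor with replicates 1 and 2 only, Lyz2 lay at 0.0454 ± 0.0477 and 0.816 ± 0.808 CPM, and Adgre1 had at most 5 reads in any library. Cd14 was not called, but was with the replicate block (edgeR adjusted p = 0.0448). The dendritic cell list of 8 genes summed to 56.7 to 91.2 CPM in control and 46.4 to 97.0 CPM in KO, with 3 of 5 tested genes called higher and 1 lower. Within it H2-Ab1 fell (41.6 ± 10.1 and 1.73 ± 0.837 CPM), whereas Cd74 (27.2 ± 7.44 and 56.1 ± 24.4 CPM), Xcr1 (0.635 ± 0.239 and 4.91 ± 0.837 CPM) and H2-Aa (0.0918 ± 0.0264 and 0.673 ± 0.362 CPM) were called higher, Cd74 not in 3 of 6 fits with a library left out. Zbtb46 was not called (1.82 ± 0.794 and 3.75 ± 1.73 CPM, edgeR adjusted p = 0.0864). It was called with the replicate block (edgeR adjusted p = 0.0172), with DESeq2 and without control replicate 3. Itgax (0.034 ± 0.031 and 0.488 ± 0.24 CPM) and Flt3 (0.352 ± 0.15 and 0.296 ± 0.142 CPM) were not tested. The sums were for the B cell list of 6 genes 7.68 to 18.1 CPM in control and 3.66 to 15.2 CPM in KO, and for the CD8 and NK cell list of 6 genes 7.60 to 11.3 and 7.13 to 12.8 CPM. Ncr1 and Klrb1c were at 0 in all 6 libraries, and Eomes was called higher (0.0991 ± 0.0574 and 1.55 ± 0.603 CPM, edgeR adjusted p = 9.5e-04). The part of other cells in the IRG differences was not tested.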

How the data were processed

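RNA of 3 control and 3 KO libraries of mouse Th17 cells was sequenced, and groups and replicate numbers come from the sample titles. The authors deposited raw counts per gene symbol, and the submitters' processing notes name STAR, featureCounts, DESeq2 and mm10. Versions, annotation, strand setting and the treatment of reads with several matches are not given in the sources used here, and 0 columns lacked a sample. Every library had its own column, and counts were used as deposited. The main test was edgeR 4.0.16 (R 4.3.3), quasi-likelihood, with TMM factors, filterByExpr and no covariate, over 14268 tested genes, and calls had a Benjamini-Hochberg adjusted p under 0.05. The SE is the absolute log2 fold change over the square root of the F statistic. Fits were tested on simulated data. Exon lengths, positions and shared 50-base stretches came from GENCODE M21, and promoters from RefSeq. Per-length levels use the union of all annotated exons.

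The members and gene lists were chosen with earlier results of these data known. The named genes are the 8 members, Rtf1, genes of the lists, and the 5 genes, among those averaging 5 CPM or more, closest to the members' mean profile on each of 2 measures. Genes beside the IRG groups were added later. Some genes that these rules and lists would name are not reported here, and list counts and sums are without them. Libraries of equal replicate number deviated together from their group means, with correlations across genes of 0.27, 0.13 and 0.379. Libraries of unequal number gave −0.390 to 0.204, where control 2 with KO 1 exceeded control 2 with KO 2. A shared number was treated as a pair only in the replicate block, and the main test took no account of it. This pairing rests on the data, since the titles give the numbers without a meaning. Alternatives were other scalings and filters, DESeq2 1.42.0, the replicate block, each library left out, replicates 1 and 2 only, and Tgtp1 and Tgtp2 summed. Intervals from counting alone are not given, and the tests use the spread between libraries.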

Additional observations from a re-analysis of the deposited data

How the results depend on the processing

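Under 15 alternative settings, 119 values of the 8 IRG genes were computed, and all 119 were higher in KO and called; the same comparison chose the genes, so this supports nothing. Leaving out each library gave 8 of 8 calls each time and a median log2 fold change between 3.16 (without control replicate 1) and 3.57 (without control replicate 2). With the replicate block the median was 3.45 and 8 of 8 were called, and with Tgtp1 and Tgtp2 summed it was 3.19 over 7 genes. The block made calls of Irf2, Irf8 and Sqstm1 and changed no other call among the other IRG, interferon and LC3 genes. With library size as the only scaling the median was 3.49 and Traf6 turned to 0.04. Without dividing by length, 6 of 8 members kept their rank in control, Irgm1 and Irgm2 changing places. In KO fewer did, since Ifi47 and Irgm2 changed places, and so did Tgtp2 and Iigp1. Signs turned, always without a call, for Atg5 with replicates 1 and 2 only (−0.05), and when libraries were left out for Atg5 (−0.18 to 0.19), Socs1 (−0.05 to 0.07) and Atg16l1 (−0.04 to 0.19). Calls in the interferon list ranged from 12 to 15, in the LC3 list from 6 to 9, among other IRG genes from 7 to 8, and over all genes from 4460 (without KO replicate 2) to 7050 when a library was left out. Control reads of Gm12185 (13 to 31) and Iigp1 (27 to 151) limit the precision of their fold changes. No alternative was left out.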
